A study of Mus musculus with 2 samples.

Results

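The miRNAs described here belong to the miR-297, miR-466, miR-467 and miR-669 families, most of which come from a large array of repeated hairpins inside a single intron of the mouse gene Sfmbt2. Members were all miRNA entries whose name carried 1 of these 4 family numbers followed by a letter or a hyphen, whatever their count, and they came to 21 of 1214 miRNA entries. Of these, 4 entries merged several mature miRNAs that the table counts together. Exosomes are small vesicles shed into the culture medium, and the RNA in them was counted in 2 small RNA libraries. The first source was C57BL/6 mouse mesenchymal stem cells (MSCs), and the other was NIH3T3 cells, an immortalised fibroblast line of the NIH Swiss strain that served as the control. Both cell types grew for 72 hours on uncoated plastic in αMEM with 5% fetal bovine serum, and neither received any other treatment named in the labels. The tissue the MSCs were taken from, and whether the serum was depleted of vesicles, are not stated in the labels. The series was set up to find miRNAs that MSC exosomes hold more of than NIH3T3 exosomes.

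Sfmbt2 encodes a polycomb-group protein, and in mouse extraembryonic tissue it is expressed from the paternal allele. The miRNA cluster in its intron is specific to rodents, is processed from the host transcript and is best known from the trophoblast, where loss of the cluster impairs growth of the placenta. Mature miRNAs guide Argonaute to mRNAs mainly through the seed near their 5′ end. The hairpins arose by repeated duplication of a stretch rich in alternating UG and CA, so many members differ by few bases and their reads are hard to assign to 1 hairpin.

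In the GENCODE M21 annotation, whose build GRCm38 is that of the deposited positions (mm10), 81 hairpins carried the 4 family names. Of these, 71 lay in 1 intron of Sfmbt2, at chromosome 2 from 10461473 to 10523944 on the plus strand, the strand of the gene. The hairpins spanned 51617 of its 62472 bases, from 10466663 to 10518279. The table placed 16 of the 21 members on chromosome 2 only, 4 elsewhere only, and 1, miR-297a-5p, on both chromosome 2 and chromosome 7. All 56 member positions on chromosome 2 fell inside Sfmbt2, in the intron. They touched 41 of its 71 named hairpins. For 6 members the table gave more than 1 position, up to 14 for the entry of miR-669a-5p and miR-669p-5p, so such a value cannot be assigned to 1 hairpin. Outside the cluster, miR-466i-5p and miR-466i-3p lay on chromosome 13 from 17747525 to 17747573, in an intron of Cdk13 on its opposite strand. miR-467f lay on chromosome 11 from 69635419 to 69635439, in an intron of Fxr2 on its opposite strand, and miR-467h lay between genes on chromosome 9, from 115381898 to 115381919.

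Mature sequences for 3 members, all encoded outside chromosome 2, were taken from RefSeq (GRCm38.p6). They are the members that matched by name, and they are shown for the alternating repeats in them, beside 2 miRNAs of other families with a UG repeat; the seed, bases 2 to 8, is in capitals.
miR-466i-3p: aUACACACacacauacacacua
miR-467f: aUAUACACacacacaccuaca
miR-467h: aUAAGUGUgugcauguauaugu
miR-574-5p: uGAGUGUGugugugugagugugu
miR-3082-5p: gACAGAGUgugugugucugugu
On the GRCm38 build these lie at chr13:17747552-17747573 (plus strand), chr11:69635419-69635439 (minus), chr9:115381898-115381919 (plus), chr5:64970328-64970350 (plus) and chr17:25831406-25831427 (minus), in the order shown. No member of the 3 shares its seed with another, and 0 of the 1049 other miRNA entries matched in the RefSeq table carried any of them. miR-466i-3p and miR-467f have no G, and purines and pyrimidines alternate over 20 and 16 bases in a row, while in miR-467h they alternate over 18. Among the 1049 matched non-members the median longest alternating run was 4 bases, and 0 had a run of 16 or more. UGUGUGUG or ACACACAC, searched on the mature strand, occurred in miR-466i-3p and miR-467f but not in miR-467h, and in 2 of the 1049 non-members (0.191%), miR-574-5p and miR-3082-5p.

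The table held 2500459 counts for the MSC library, 1028186 of them on miRNAs, and 1037147 for the NIH3T3 library, 431007 of them on miRNAs. Each entry of the table had 10 or more counts in at least 1 library, so family members below that in both were not analysed here. A level is given as CPM, the counts per 1000000 miRNA counts of the library. For the MSC library a single count equals 0.973 CPM, and for the NIH3T3 library it equals 2.32 CPM. Each group held 1 library, so the differences have no replicate check and no test was made. Brackets hold 95% intervals that cover counting error only. Cell type, strain and library differ together and cannot be told apart, nor can fewer vesicles of a kind be told apart from fewer copies per vesicle. Mesenchymal miRNAs were present in both, with 4 of 4 listed markers (such as miR-199a-3p) holding 22.4% of MSC and 16.9% of NIH3T3 miRNA counts. Of 8 listed miRNAs of pluripotent cells, 2 were in the table, miR-290a-5p and miR-294-3p, with at most 37 MSC and 7 NIH3T3 counts. The table also held 7 unlisted entries of the same miR-290 and miR-302 clusters, the highest of which in MSC exosomes was miR-292b-5p with 160 MSC counts and 1 NIH3T3 count. All 5 blood cell markers were there, at 0.0275% and 0.0462% of miRNA counts, and 2 of 5 epithelial markers, at 0.00496% and 0.00464%. The part of such cells in the results below was not tested.

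The members were a minor component of both exosome preparations and took a larger share of the NIH3T3 library. Their counts summed to 654 in MSC exosomes, 0.0636% of miRNA counts (0.0589 to 0.0687), and to 691 in NIH3T3 exosomes, 0.160% (0.149 to 0.173). On the deposited scale, in which all values of a library are the counts times 1 factor, this was a 2.97-fold lower level in MSC exosomes (log2 ratio -1.57, -1.73 to -1.41). Without miR-669c-5p, the member with the largest drop among the abundant ones, the ratio of the sums was -1.32, and without the most abundant entry, that of miR-669a-3p and miR-669o-3p, it was -1.81. Scaled by the miRNA totals it was -1.33. The shares of the families within the members' own counts do not depend on any scaling between libraries. The miR-669 entries made up 58.6% of member counts in the MSC library (54.7 to 62.3) and 59.5% in the other (55.8 to 63.1). The miR-466 entries made up 22.3% (19.3 to 25.7) and 18.8% (16.1 to 21.9), and the miR-467 entries 17.6% (14.9 to 20.7) and 21.4% (18.5 to 24.6). For these 3 families the intervals of the libraries overlapped, so a shift between families was not detectable at this depth.

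**Figure D1:**
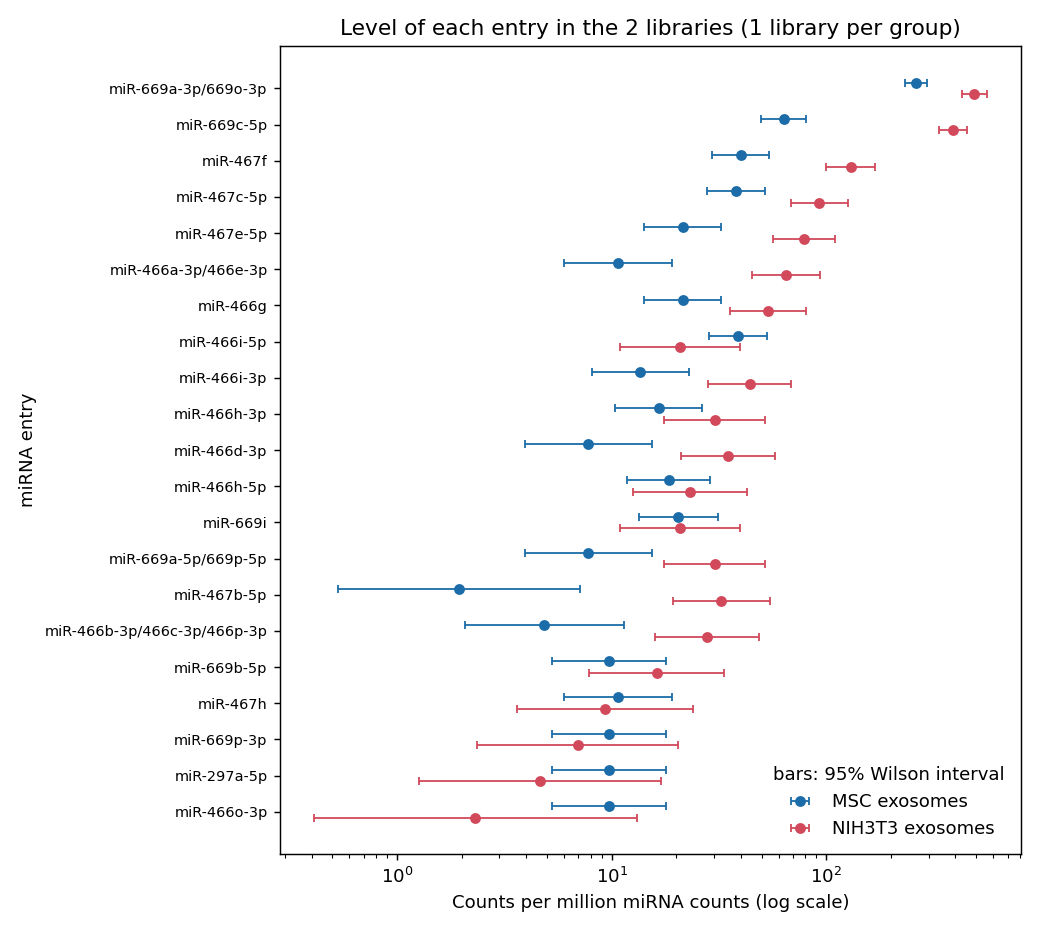
Level of each of the 21 entries in the MSC library (blue) and the NIH3T3 library (red), in CPM of the miRNA counts on a log axis, with bars for the 95% Wilson interval of 1 library each. The 3 entries at the top pass 100 CPM in at least 1 library, and below them the intervals are wide and those of the lowest 5 entries overlap between the libraries.

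Among the 21 entries 13 were lower in MSC exosomes by 2-fold or more, 1 was higher and 7 were within these bounds. Of all 1214 miRNA entries, 25.5% were lower by this rule and 23.8% were higher. Each ratio divides the MSC by the NIH3T3 value on the deposited scale, with a constant equal to 1 CPM of the average miRNA total added to both. The median log2 ratio of the members was -1.50, beside -0.04 for all miRNA entries. For 7 members the counting interval lay wholly below a 2-fold reduction, where 11.0% of all entries did, and for 0 it lay wholly above a 2-fold increase, where 9.06% did. The interval excluded equality for 12 members, all lower in MSC exosomes, where 27.1% of all entries were lower and 22.7% higher by this rule. At 1.5-fold 14 members were lower and 3 higher, beside 35.0% and 32.6% of all entries, and at 4-fold 7 were lower and 0 higher, beside 10.4% and 10.6%.

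Which library had carried an entry past the minimum of 10 counts set part of this split. The 4 members with 10 or more counts in NIH3T3 exosomes alone were all lower in MSC exosomes, as they had to be, and of the 7 with 10 or more in MSC exosomes alone 0 were lower, 1 was higher and 6 were within 2-fold. Of the 7 intervals that lay wholly below a 2-fold reduction, 3 belonged to the 4 members that passed in NIH3T3 exosomes alone. Of the 10 members with 10 or more counts in both libraries, a group formed after the values were seen, 9 were lower and 1 was within 2-fold, with a median of -1.68. Among all 584 miRNA entries of that kind 39.0% were lower and 12.8% higher, with a median of -0.62. On raw counts alone, 7 of these 10 members had more counts in the NIH3T3 library although it was the shallower one, as had 146 of the 584 entries. For 4 of the 10 the interval lay wholly below a 2-fold reduction, beside 16.8% of the 584, and for 0 wholly above a 2-fold increase, beside 7.88%.

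The level of the members also bears on how precisely they were measured. At 10 CPM or more in at least 1 library, 13 of 18 members were lower and 0 higher, beside 26.2% and 23.9% of 1181 entries. Their interval passed the 2-fold bound below for 7 members and above for 0, beside 11.3% and 9.31%. This floor could remove only entries with 10 MSC counts (9.73 CPM) and at most 4 NIH3T3 counts (9.28 CPM). None of those is lower by the 2-fold rule, so the larger part of members that were lower is built in and is no separate check. At 100 CPM or more all 3 members were lower, beside 26.1% lower and 34.0% higher of 318 entries, and for 2 of them the interval lay wholly below the bound, beside 22.6% below and 27.4% above. Those 2, miR-669c-5p and miR-467f, reached 100 CPM in the NIH3T3 library alone, so this floor itself favours a lower ratio for them. The 18 members under 100 CPM in both libraries were set against the 896 entries of like level. Of these members 10 were lower and 1 was higher, beside 25.2% and 20.2%, and the interval lay wholly below the bound for 5 and above for 0, beside 6.92% and 2.57%. This set is not free of the minimum of 10 counts either. Of the 18 members 4 passed it in the NIH3T3 library alone, beside 55 of the 896 entries, which fixed their lower calls in advance. Those 4 also held 3 of the 5 intervals. In the MSC library alone 7 members passed it, beside 525 of the 896.

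**Figure D2:**
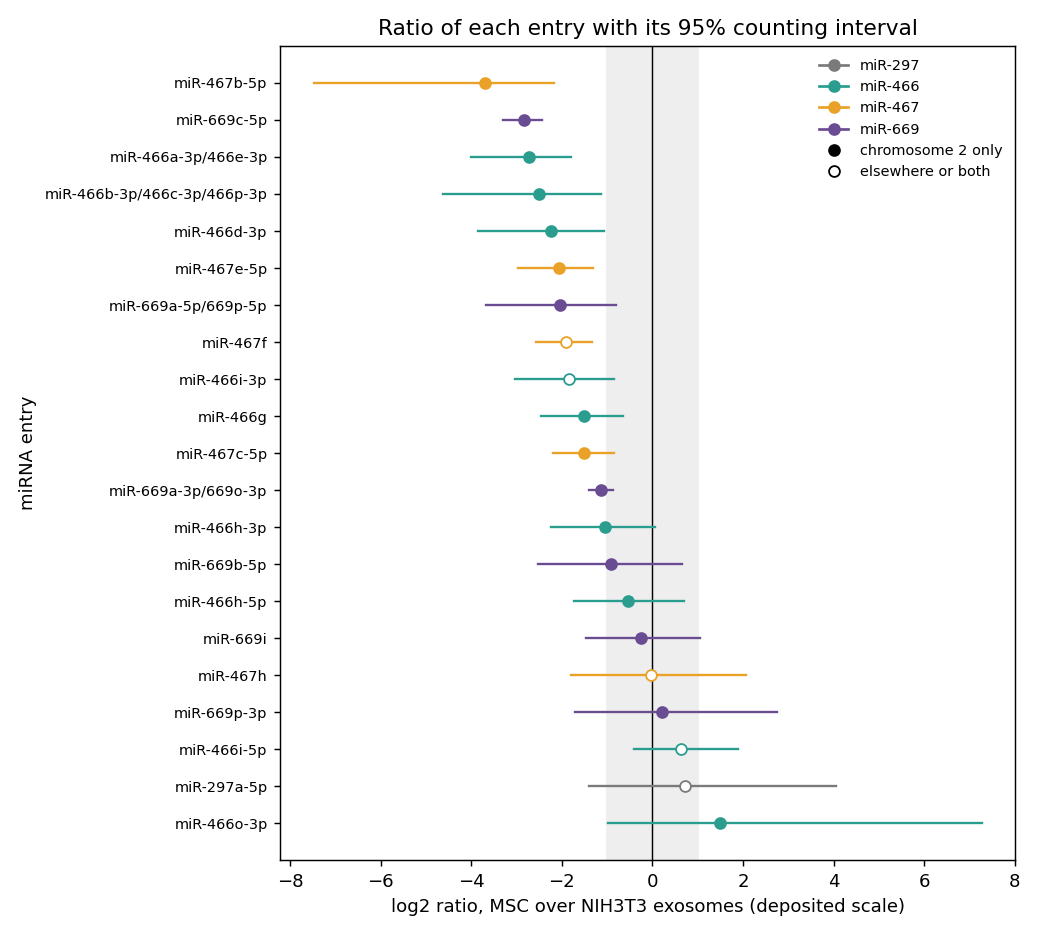
Log2 of the MSC to NIH3T3 ratio on the deposited scale for each of the 21 entries, with the 95% counting interval as a line, coloured by family. The grey band spans the 2-fold bounds, open points are entries placed outside chromosome 2 or on both, and 13 points lie at or below -1.

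The miR-669 family held the most abundant members. In cardiac progenitors of the mouse, miR-669a is known as a repressor of MyoD. The merged entry of miR-669a-3p and miR-669o-3p held 269 MSC counts (262 CPM, 232 to 295) and 211 NIH3T3 counts (489.6 CPM, 428 to 560). It was the member with the most counts in both, and ranked 151 among all miRNA entries of the MSC library and 108 among those of the NIH3T3 library. Its log2 ratio was -1.14 (-1.40 to -0.87), just past the 2-fold bound, and it was within 2-fold (-0.90) when each library was scaled by its miRNA total.

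miR-669c-5p came next in both libraries and was much more prominent in NIH3T3 exosomes. It held 65 MSC counts (63.2 CPM, 49.6 to 80.6) and 168 NIH3T3 counts (389.8 CPM, 335.1 to 453), a level 7.15-fold lower in the MSC library (log2 ratio -2.84, -3.30 to -2.44). It took 9.94% of the members' counts in the MSC library (7.87 to 12.5) and 24.3% in the NIH3T3 library (21.3 to 27.6). These shares need no scaling between libraries, and their intervals did not overlap. The entry of miR-669a-3p and miR-669o-3p took 41.1% (37.4 to 44.9) and 30.5% (27.2 to 34.1), a share that miR-669c-5p lowers in the NIH3T3 library, since both are parts of 1 total. With miR-669c-5p left out of the total it took 45.7% (41.7 to 49.7) and 40.3% (36.2 to 44.6), and those intervals overlapped. miR-669c-5p has 1 position, on chromosome 2 from 10509319 to 10509340, whereas miR-669a-3p and miR-669o-3p are counted together over 12 positions.

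The other miR-669 entries were sparse. The entry of miR-669a-5p and miR-669p-5p, counted over 14 positions, had 8 MSC and 13 NIH3T3 counts (-2.04, -3.67 to -0.81). It passed the minimum of 10 counts in NIH3T3 exosomes alone, which fixed its lower call in advance. miR-669i had 21 and 9 counts (-0.25), miR-669b-5p 10 and 7 (-0.90), and miR-669p-3p 10 and 3 (0.22). The last 3 were within 2-fold, with intervals that included equality. In all, 3 of 6 miR-669 entries were lower and 0 were higher, beside 25.5% and 23.8% of all miRNA entries.

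The miR-467 family had 4 of 5 entries lower in MSC exosomes and 0 higher, beside 25.5% and 23.8% of all miRNA entries. Its median log2 ratio was -1.91. miR-467f, encoded on chromosome 11, held 41 MSC counts (39.9 CPM, 29.4 to 54.1) and 56 NIH3T3 counts (129.9 CPM, 100.1 to 169), a log2 ratio of -1.91 (-2.56 to -1.33). Like miR-669c-5p, it passed 100 CPM in the NIH3T3 library alone, while the entry of miR-669a-3p and miR-669o-3p passed it in both. miR-467c-5p had 39 and 40 counts (-1.50, -2.20 to -0.85), and miR-467e-5p 22 and 34 (-2.06, -2.96 to -1.30).

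miR-467b-5p, whose hairpin is known in mouse macrophages as a repressor of lipoprotein lipase, had the lowest ratio of all members. It had 2 MSC and 14 NIH3T3 counts (-3.70, -7.48 to -2.17), so that its size is poorly fixed, and with 10 CPM added in place of 1 it was -1.94. As miR-467b-5p passed the minimum of 10 counts in the NIH3T3 library alone, its lower call was fixed in advance. The fifth entry, miR-467h from chromosome 9, had 11 and 4 counts and a ratio close to equality (-0.03, -1.79 to 2.08).

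The miR-466 family was the most numerous in entries and had few counts in each. Of 9 entries, 6 were lower in MSC exosomes, 1 was higher and 2 were within 2-fold, with a median of -1.51. Among all miRNA entries 25.5% were lower and 23.8% higher. The entry of miR-466a-3p and miR-466e-3p had 11 MSC and 28 NIH3T3 counts, a 6.58-fold difference (-2.72, -3.99 to -1.79). The entry of miR-466b-3p, miR-466c-3p and miR-466p-3p, placed at 12 positions, had 5 and 12 counts (-2.51, -4.61 to -1.14), and miR-466d-3p had 8 and 15 (-2.25, -3.84 to -1.07). All 3 had an interval wholly below a 2-fold reduction. The last 2 of them passed the minimum of 10 counts in the NIH3T3 library alone, which fixed their lower calls in advance. miR-466g had 22 and 23 counts (-1.51, -2.47 to -0.65), where equal raw counts correspond to -1.49 on the deposited scale before the added constant.

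The single entry called higher in MSC exosomes was miR-466o-3p, and it rested on 10 counts against 1 (1.501, -0.98 to 7.27), with an interval that included equality. miR-297a-5p, the lone miR-297 entry, had 10 counts against 2 (0.72, -1.40 to 4.06). Both fall outside the rule for named members and are given so that every member is accounted for.

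For miR-466i and miR-466h each arm has an entry of its own, and the balance between arms does not depend on scaling. For miR-466i, on chromosome 13, the 5p arm had 40 MSC and 9 NIH3T3 counts, while the 3p arm had 14 and 19. The 5p arm thus made up 74.1% of the hairpin's MSC counts (61.1 to 83.9) and 32.1% of its NIH3T3 counts (17.9 to 50.7), and the intervals did not overlap. On the deposited scale the 3p arm was lower in MSC exosomes (-1.85, -3.04 to -0.86) and the 5p arm was within 2-fold (0.64, -0.40 to 1.89). The arm difference of miR-466i was picked out after its values were seen.

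At miR-466h the intervals of the libraries overlapped. miR-466h-5p, known as pro-apoptotic in nutrient-starved Chinese hamster ovary cells, had 19 MSC and 10 NIH3T3 counts, and miR-466h-3p had 17 and 13. The 5p arm made up 52.8% (37.0 to 68.0) and 43.5% (25.6 to 63.2), so a difference was not detectable at this depth. Their ratios were -0.54 (-1.74 to 0.70) for the 5p arm and -1.05 (-2.23 to 0.06) for the 3p arm, which was within 2-fold when scaled by the miRNA total. For miR-669a, miR-669o and miR-669p the merged entries of the 2 arms cover different sets of hairpins, so no arm share is given. Over all members 5 of 9 5p entries and 6 of 8 3p entries were lower, as were 2 of the 4 entries with no arm in their name, beside 25.5% of all miRNA entries. For 2 of the 5p and 2 of the 3p entries, passing the minimum of 10 counts in the NIH3T3 library alone fixed the lower call.

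**Figure D3:**
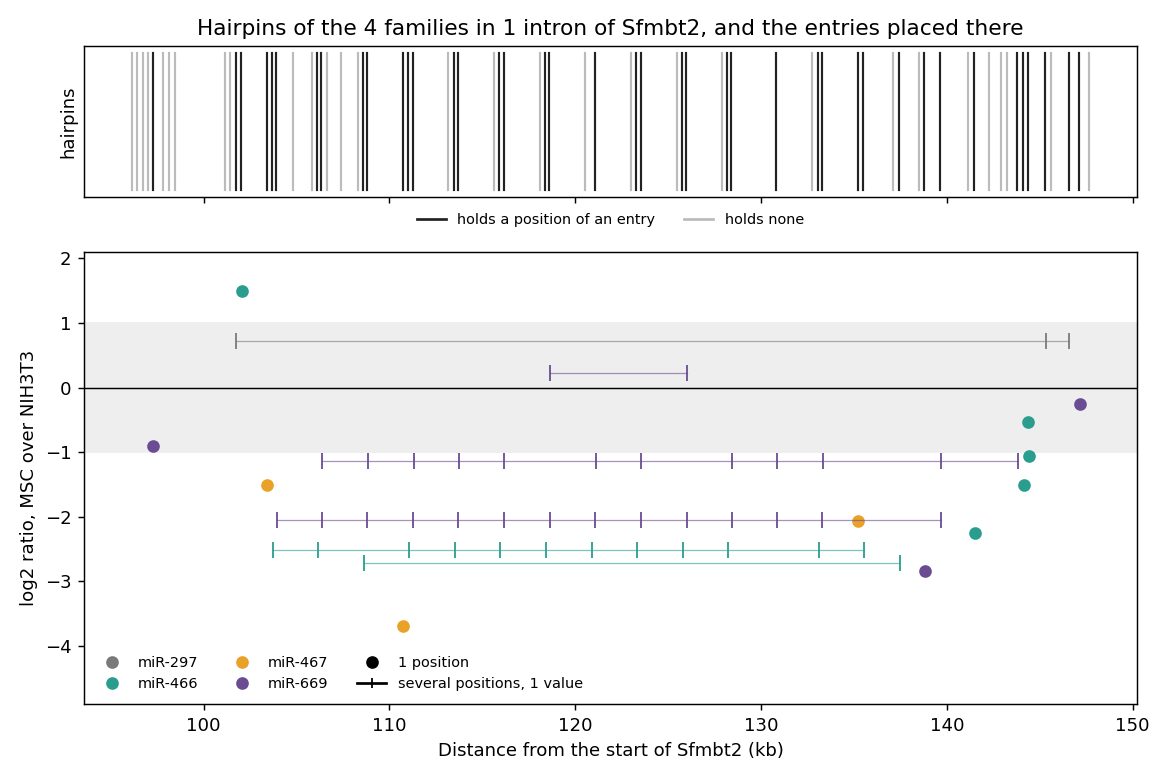
In the upper panel are the 71 hairpins of the 4 families in the intron of Sfmbt2 by distance from the start of the gene in kb, dark where a position of an entry falls on them. The lower panel gives each entry's log2 ratio (MSC over NIH3T3) at its position, with entries of several positions drawn as ticks joined at their 1 value. Entries below the grey 2-fold band lie along most of the array, from 103431 to 144430 bases.

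By position the members inside and outside Sfmbt2 overlapped in their ratios. Of the 16 placed on chromosome 2 only, 11 were lower and 1 was higher, with a median of -1.50 and a range from -3.70 to 1.501. Of the 4 placed elsewhere only, 2 were lower and 0 higher, with a range from -1.91 to 0.64. Passing the minimum of 10 counts in the NIH3T3 library alone fixed 4 of the 11 lower calls on chromosome 2 only and 0 of those elsewhere. The lowest ratio, that of miR-467b-5p, was among those 4. The summed counts were 538 and 601 on chromosome 2 only (-1.65, -1.82 to -1.48) and 106 and 88 elsewhere only (-1.22, -1.64 to -0.80). Those intervals overlap, and whether the position in the genome goes with a different ratio was not tested. The 15 members with 1 position had 9 lower and 1 higher, and the 6 with several had 4 lower and 0 higher. In each of these 2 sets the same minimum fixed 2 of the lower calls. Beside every group by position, the share over all miRNA entries was 25.5% lower and 23.8% higher.

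The Dlk1-Dio3 miRNAs, another imprinted cluster, had a share of lower entries close to that of the members. Of their 76 entries 48 (63.2%) were lower and 6 (7.89%) higher, beside 61.9% and 4.76% of the members and 25.5% and 23.8% of all entries, and differences between the sets were not tested. Their median was -1.72, and their 3 most abundant entries, miR-382-5p, miR-127-3p and miR-541-5p, had ratios of -6.29, -3.44 and -8.04. With 10 or more counts in both libraries, 28 of 37 were lower, beside 9 of the 10 members and 39.0% of all 584 entries of that kind. The lowest ratio among the 37 was -8.04, beside -2.84 among those 10 members. Of 9 entries from other imprinted loci, 6 were higher in MSC exosomes and 2 were lower. The most abundant of them were miR-296-3p (2.51) and miR-298-5p (3.34) from Gnas and miR-335-3p (3.82) from Mest. The 2 non-members with a UG repeat were not lower. miR-574-5p had 1248 MSC and 151 NIH3T3 counts, a 2.94-fold higher level (1.55, 1.31 to 1.81), and miR-3082-5p had 10 and 4 (-0.15, -1.96 to 1.96).

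**Figure D4:**
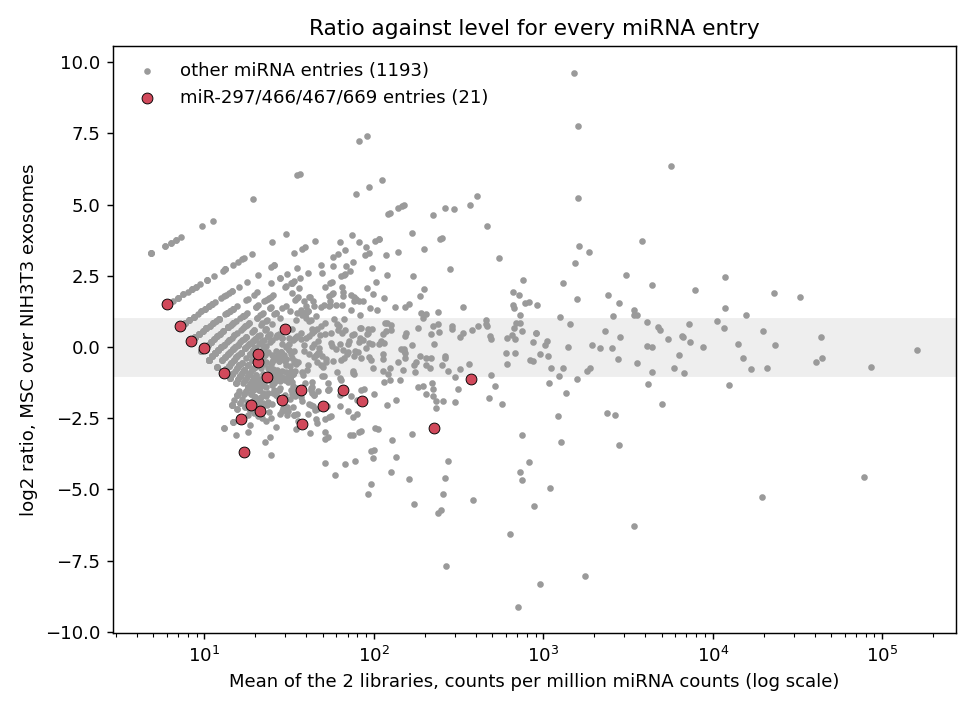
Log2 of the MSC to NIH3T3 ratio against the mean level of both libraries (log axis) for the 21 entries (red) and the 1193 other miRNA entries (grey), with the 2-fold bounds as a grey band. The red points lie between -3.70 and 1.501, within the range of the other entries, and 18 of the 21 stay under 100 CPM in both libraries.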

How the data were processed

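The data were 1 small RNA library of MSC exosomes and 1 of NIH3T3 exosomes. Per the labels, RNA came from an exoRNeasy kit and libraries from a QIAseq miRNA kit; the protocols also mention a microarray. Per the file headers, 1 pair of columns holds raw counts, which are whole numbers. The deposited log2 values are normalized and equal the log2 of the raw count times 0.655 (MSC) or 1.84 (NIH3T3). The submitters' processing notes name the build mm10. Aligner, counter, treatment of reads with several positions, and whether molecular identifiers were counted are not given in the sources used here; PCR copies would make intervals too narrow.

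Ratios used these factors after adding 0.734, which is 1 CPM of the mean miRNA total; intervals are exact conditional (Clopper-Pearson) for ratios and Wilson for shares. No p-value was computed. With no replicates, calls were made by size, at 2-fold. Code was tested on simulated data (Python 3.11.15, scipy 1.17.1). Positions were read against GENCODE M21 and sequences were matched by name in RefSeq, for 3 of 21 members. Members and lists were chosen with earlier results of these data known. Named were the 15 members with the highest mean CPM, at 10 CPM or more the 5 highest and the 5 lowest ratios, opposite arms, members over 100 CPM, and the 3 most abundant of each comparison set.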

Additional observations from a re-analysis of the deposited data

How the results depend on the processing

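Scaling by the miRNA total raised the ratios of all miRNA entries by a median of 0.22, and scaling without the 10 most abundant of each library changed them by -0.16. The number of members lower in MSC exosomes ran from 11 to 14 over 3 scalings and 2 added constants, with 13 as reported, and the median from -1.66 to -1.19. The share of all miRNA entries that were lower moved too: 11 members beside 20.8% with the miRNA total, 14 beside 29.6% without the 10 most abundant, and 12 beside 19.3% with 10 CPM added. It was 3 of 3 at a floor of 100 CPM, 7 at 4-fold and 7 with the interval wholly beyond 2-fold. The number higher, 1 as reported, was 3 at 1.5-fold and 0 at 4-fold, with 10 CPM added, at floors of 10 and 100 CPM, by the interval rule, and with 10 or more counts in both libraries. The floor of 10 CPM could remove no entry that was lower, so it is no separate check. Of the 3 members at the floor of 100 CPM, 2 reached it in the NIH3T3 library alone. Member shares of 0.0636% (MSC) and 0.160% (NIH3T3) became 0.0262% and 0.0666% of all entries, 0.149% and 0.497% without the 10 most abundant of each library, 0.0533% and 0.140% for members with a position on chromosome 2, and 0.0374% and 0.111% without the member with the most counts. The log2 ratio of the sums, -1.57, was -1.81 without miR-669a-3p and miR-669o-3p, -1.32 without miR-669c-5p and -1.33 scaled by the miRNA total. Settings on this sum and with 10 or more counts in both libraries were added after seeing the data. Of 19 named members, 16 had the same call under all 5 scalings and constants; the others were the entry of miR-669a-3p and miR-669o-3p, miR-466h-3p and miR-669b-5p, all near the bound. Grouping by distinct mature sequence was not run, since sequences were used for 3 members. No paired analysis was possible because each group has 1 library. Precision is limited by depth, with 18 of 21 members under 100 CPM in both libraries, and by the single library per group.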
